A study of Mus musculus with 6 samples.

Results

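The genes described here encode 10 enzymes of glycolysis, named by symbol: Hk2, Gpi1, Pfkl, Aldoa, Tpi1, Gapdh, Pgk1, Pgam1, Eno1 and Ldha. They were chosen with earlier results of these data known, so their counts beside those of all genes are a description. All 10 were found among the 23183 gene symbols with a value, and 9 of them were among the 10326 genes that passed a filter on low values. Gapdh was also the loading control of the RT-PCR assays in the study. RNA was sequenced from CD4+CD8+ double-positive (DP) thymocytes of C57BL/6 mice aged 6 weeks. The 3 WT libraries came from NSRP1f/f mice, and the 3 cKO libraries came from NSRP1f/fCD4Cre mice. NSrp70, the product of Nsrp1, is a nuclear speckle protein that regulates RNA splicing. Both groups carried the floxed allele. The WT mice had no Cre, so a Cre transgene without the floxed allele was not among the samples. CD4Cre is active from the late double-negative and DP stages onward, and so in the T cells that descend from them, not in DP cells alone.

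Glycolysis turns glucose into pyruvate in the cytosol. Hexokinase and phosphofructokinase act early, use ATP and are the regulated entry steps, whereas most of the enzymes between them and pyruvate kinase run close to equilibrium. Lactate dehydrogenase turns pyruvate into lactate and returns the NAD+ that GAPDH needs. Thymocytes are known to use glycolysis most when they grow and divide, at the beta-selection stage before they become resting DP cells. Several of these genes are textbook targets of the hypoxia factor HIF-1 and of Myc.

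In cKO DP thymocytes the mRNA of 7 enzymes, all of them outside the regulated entry steps, was higher than in WT: Gpi1, Aldoa, Tpi1, Gapdh, Pgk1, Eno1 and Ldha. Their mean levels were between 1.65-fold (Aldoa) and 2.51-fold (Tpi1) those of WT. Pfkl and Pgam1 did not pass the test, with mean levels 0.959-fold and 0.917-fold those of WT. Hk2, below 1 FPKM in every library, was not tested. Levels are given as FPKM, fragments scaled to transcript length and to library depth, and differences as log2 fold changes of log2(FPKM + 1), cKO minus WT, after median-of-ratios scaling. Calls are from limma with Benjamini-Hochberg adjustment over all tested genes at 0.05. Against the 7 higher and 0 lower of 9 tested enzymes, 35.8% of all tested genes were called higher and 29.8% were called lower in cKO. The count of lower enzymes was also 0 at an unadjusted p of 0.05 by limma. The median log2 fold change was 0.73 over the 9 enzymes and 0.04 over all tested genes. These counts depended on how the WT libraries and low genes were handled. When the 3 WT libraries were counted as 1 sample, 0 of the 9 enzymes were called by limma (4 were higher and 0 lower at an unadjusted p of 0.05), beside 7.16% of all genes higher and 8.74% lower. Without a filter on low values, or without any 1 of the WT libraries, cKO 1 or cKO 3, Gpi1 and Aldoa lost the call and 5 enzymes remained.

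The libraries held an estimated 13160000 to 20840000 fragments, and the numbers of mice behind each library were not given in the sources used here, so p-values measure the spread between these libraries, which may be technical. The variance between 2 WT libraries was 1.5 to 1.59 times what counting fragments gives, and that between 2 cKO libraries was 31.5 to 67.4 times. The WT libraries are thus nearly as alike as repeated counts of 1 RNA, which is why they were also counted as 1 sample. The targeted gene, Nsrp1, had 20.2, 20.7 and 21.1 FPKM in WT and 17.7, 15.8 and 15.0 FPKM in cKO, a log2 fold change of -0.34 (SE 0.08, adjusted p = 0.00675, or 0.184 with WT counted as 1 sample). Whole-gene FPKM does not single out the floxed exons. Xist, a transcript of the inactive X chromosome, averaged 70.9 FPKM in WT and 4.75 in cKO, and Ddx3y, a Y-linked gene, was listed at 0 in every WT library and had 26.2 to 35.0 in cKO. Sex-linked expression therefore separated the libraries in the same way as genotype, and the contributions of the 2 to any enzyme, X-linked Pgk1 included, cannot be told apart. In these bulk samples, fewer cells of a type and less RNA per cell cannot be told apart either.

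Gpi1, glucose-6-phosphate isomerase (mm10 chr7:34201330-34230336, minus strand), had 91.4, 90.4 and 88.4 FPKM in WT and 203, 103 and 162 FPKM in cKO. Every cKO library was above every WT library, but cKO 2 was close to WT. The log2 fold change was 0.73 (SE 0.23, adjusted p = 0.0246). Aldoa, the aldolase that splits the hexose into 2 trioses (chr7:126795234-126800751, minus strand), had 96.9, 92.5 and 96.4 FPKM in WT and 193, 107 and 172 in cKO. Its log2 fold change was 0.67 (SE 0.21, adjusted p = 0.0252). The same order of cKO libraries, with cKO 1 highest and cKO 2 lowest, was seen as for Gpi1.

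Tpi1, triosephosphate isomerase, which interconverts the trioses (chr6:124810586-124814296, minus strand), had 49.5, 49.7 and 48.6 FPKM in WT and 149.7, 80.6 and 140.0 FPKM in cKO. This was the largest change among the 9 tested enzymes, a log2 fold change of 1.26 (SE 0.22, adjusted p = 0.00236). Its lowest cKO library was well above the highest WT library. Gapdh, which couples triose oxidation to NADH (chr6:125161715-125166467, minus strand), had 583, 585 and 575 FPKM in WT and 1510.1, 865 and 1315 FPKM in cKO. Its log2 fold change was 1.04 (SE 0.21, adjusted p = 0.00376). Pgk1, phosphoglycerate kinase, the first ATP-forming enzyme of the pathway (chrX:106187100-106203699, plus strand), had 131.0, 131.0 and 131.4 FPKM in WT and 252, 182 and 270 FPKM in cKO. Here cKO 3, not cKO 1, was highest, and the log2 fold change was 0.81 (SE 0.15, adjusted p = 0.00275).

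Eno1, alpha-enolase, which forms phosphoenolpyruvate (chr4:150236721-150248879, plus strand), had 173, 172 and 168 FPKM in WT and 336, 212 and 312 FPKM in cKO. Its log2 fold change was 0.71 (SE 0.17, adjusted p = 0.00887). Ldha, the lactate dehydrogenase subunit typical of muscle and of dividing cells (chr7:46841475-46855627, plus strand), had 217, 223 and 214 FPKM in WT and 535, 302 and 506 FPKM in cKO. Its log2 fold change was 0.99 (SE 0.21, adjusted p = 0.00557). For both genes the lowest cKO library exceeded the highest WT library.

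The remaining 3 enzymes had different values. Pgam1, phosphoglycerate mutase (chr19:41911923-41918660, plus strand), which lies between Pgk1 and Eno1 in the pathway, had 34.0, 35.6 and 32.9 FPKM in WT and 30.5, 31.6 and 31.9 FPKM in cKO. The cKO values were all slightly below WT and close to each other, with a log2 fold change of -0.12 (SE 0.06, adjusted p = 0.114). Pfkl, the liver-type subunit of phosphofructokinase (chr10:77986947-78010083, minus strand), had 11.3, 11.2 and 11.3 FPKM in WT and 13.8, 8.06 and 10.6 FPKM in cKO. The groups overlapped, and the log2 fold change was -0.08 (SE 0.17, adjusted p = 0.675). Its sign turned to 0.10 without cKO 2 and to 0.42 (adjusted p = 0.0548) after correction for GC content and length. Hk2, the inducible hexokinase of growing cells (chr6:82725025-82774454, minus strand), had 0.695, 0.468 and 0.646 FPKM in WT and 0.281, 0.445 and 0.424 FPKM in cKO. All cKO values were below WT, but the estimate behind the lowest was about 20 fragments, and with no filter the log2 fold change was -0.21 (SE 0.07, adjusted p = 0.0647). All cKO libraries were above all WT libraries for 7 of the 10 enzymes and below them for 2, Hk2 and Pgam1. Over all tested genes these shares were 39.2% and 33.3%.

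**Figure D1:**
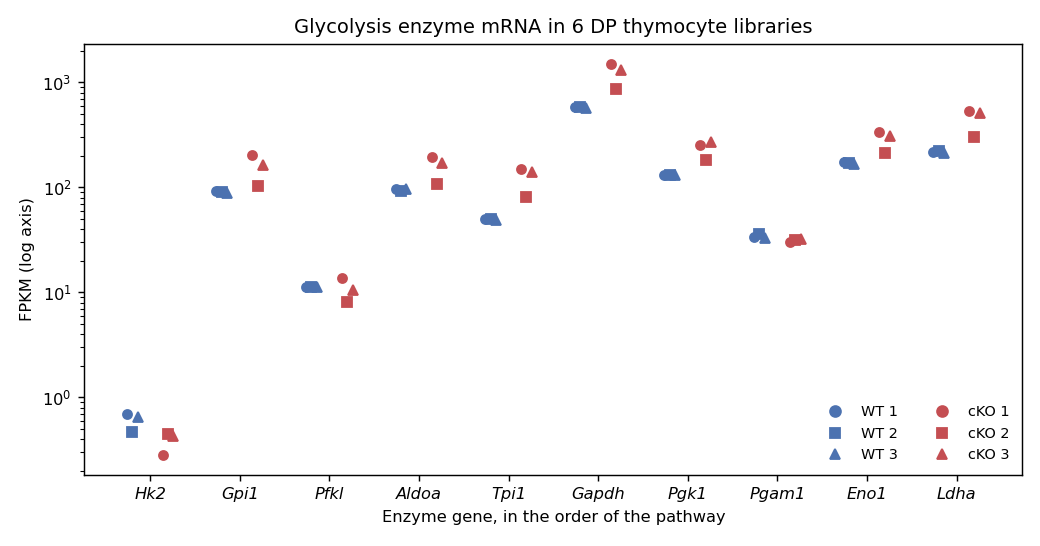
FPKM of each enzyme on a log axis, in the order of the pathway, with 1 point per library (blue WT, red cKO; circle, square and triangle are replicates 1, 2 and 3). The red points lie above the blue ones for 7 enzymes, with the square, cKO 2, lowest in each, and overlap or lie below them for Hk2, Pfkl and Pgam1.

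Since FPKM is per length, levels can be ordered across genes. In WT the order was Gapdh, Ldha, Eno1, Pgk1, Aldoa, Gpi1, Tpi1, Pgam1, Pfkl and Hk2, from 581 FPKM on average down to 0.603. The order was the same in every library except cKO 1, in which Gpi1 exceeded Aldoa. These neighbours were close in WT too, with ranges of 88.4 to 91.4 and 92.5 to 96.9 FPKM, and no neighbouring ranges overlapped in WT. In cKO, every neighbouring pair from Ldha down to Tpi1 had overlapping ranges, while Gapdh above them and Pgam1, Pfkl and Hk2 below them stayed separate.

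High level went with a rise in these data, with level taken as the mean over all 6 libraries, cKO included. A rise in cKO itself raises that mean, so part of this link may be built in. Ranking by the WT level alone was not tested. Of the 1033 tested genes with the highest mean FPKM, from 89.8 FPKM upward, 69.4% were called higher and 9.87% lower, with a median log2 fold change of 0.58. That set contained 6 of the enzymes, all called higher: Gpi1, Aldoa, Gapdh, Pgk1, Eno1 and Ldha. Tpi1 was the only enzyme called higher from outside it. The enzymes at 34.2 FPKM (Pgam1), 11.3 (Pfkl) and 0.603 (Hk2) in WT were the lowest of the 10.

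The cKO libraries differed among themselves in a way the 7 enzymes shared, but not they alone. Pfkl, which was not called, had cKO 2 at 66.1% of the mean of cKO 1 and cKO 3. Its coefficient of variation among cKO libraries was 26.6%. cKO 2 had the lowest value of the 3 cKO libraries for 7 of the 7, compared with 59.0% of the 3693 genes called higher. The level in cKO 2 was 55.6% (Tpi1) to 69.7% (Pgk1) of the mean of cKO 1 and cKO 3, and the median over all genes called higher was 90.9%. The coefficient of variation among cKO libraries was 19.8% (Pgk1) to 32.2% (Gpi1) for these 7, but 2.41% for Pgam1, and counting of fragments gave 0.637% to 1.87% for the 7. In WT, it was 0.168% to 2.53% for the same 7. For 6 of the 7, and for Pfkl, levels fell in the order cKO 1, cKO 3, cKO 2. Estimated depth rose in that order, with 13160000, 17380000 and 20670000 fragments, beside 20710000 to 20840000 in WT. By this estimate, the highest enzyme values lay mostly in the shallowest library, and the deepest cKO library was nearest to WT. The estimate was not compared with the read number that the study states. What part depth had in these values was not tested.

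As a description over 6 libraries, the profile of each of the 7 enzymes had a Pearson correlation of 0.969 (Pgk1) to 0.999 (Eno1) with the mean of the other tested enzymes, while Pfkl had 0.278 and Pgam1 -0.769. The genotype and the low cKO 2 value shape all of these. The non-enzyme genes with the most similar profiles were Eif3d, a translation initiation subunit, at 0.9998, then Tpm3, a tropomyosin, Ttc1, Plin3, a lipid droplet protein, and Arpc1b, an Arp2/3 actin complex subunit, at 0.9993. The profile was not rare, with 166 of 10317 tested genes at 0.99 or more.

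The summed FPKM of the 10 enzymes was 1389, 1391 and 1367 in WT and 3225, 1892 and 2920 in cKO, and the largest part of it was Gapdh, 41.99% to 42.07% in WT and 45.02% to 46.82% in cKO. The sum of FPKM over all genes was also larger in cKO, 701396 to 850548 against 521296 to 531517. As a share of that total, the enzymes made up 0.261%, 0.267% and 0.259% in WT and 0.408%, 0.270% and 0.343% in cKO. The share in cKO 2 was thus just above WT, and the mean share in cKO was 1.3-fold that in WT.

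The scaling of libraries mattered for how many enzymes differed. When each library was scaled to the same FPKM total, which moved the median of all genes by -0.49, Tpi1, Gapdh, Pgk1 and Ldha were called higher and Pfkl and Pgam1 lower, beside 8.74% of all genes higher and 59.9% lower. Under quantile normalization, Tpi1, Pgk1 and Ldha were called higher and Pgam1 lower (log2 fold change -0.22, adjusted p = 0.0136), beside 33.3% and 29.9% of all genes. Once GC content and length were corrected for, all 7 were called higher and Pgam1 was called lower (-0.25, adjusted p = 0.0111), beside 32.0% and 25.1%. Tpi1, Pgk1 and Ldha were the enzymes called higher under each of these 3 and under median-of-ratios scaling.

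**Figure D2:**
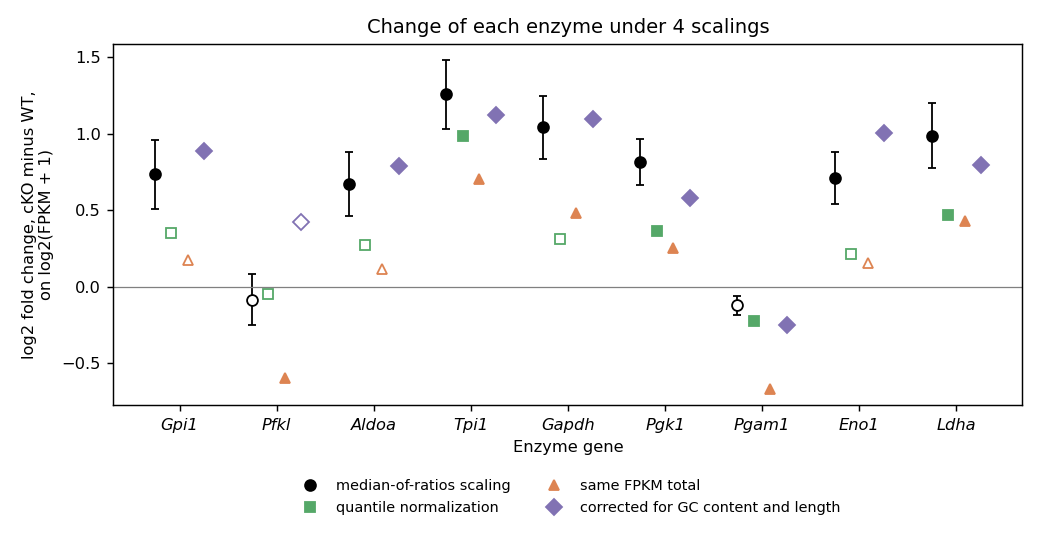
Log2 fold change (cKO minus WT) of the 9 tested enzymes under 4 scalings. Filled symbols passed an adjusted p of 0.05 and open symbols did not. Bars on the black circles are standard errors. Tpi1, Pgk1 and Ldha are filled and above 0 in all 4, and Pgam1 lies below 0 in all 4.

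Isoenzymes were summed to see whether another gene supplied a step. Hk1, the housekeeping hexokinase, provided nearly all of the hexokinase mRNA, and the step summed to 30.7, 31.9 and 30.3 FPKM in WT and 28.3, 19.2 and 27.2 FPKM in cKO, where Hk2 held 0.995% to 2.32% of the sum in the 6 libraries. All cKO sums were below WT, and Hk1 itself did not pass the test (-0.32, adjusted p = 0.0975). The phosphofructokinase sum of Pfkl, Pfkm and Pfkp was 44.9, 44.3 and 46.0 FPKM in WT and 47.3, 41.7 and 46.1 FPKM in cKO, with overlapping groups. Neither Pfkm, the muscle type (-0.18, adjusted p = 0.0541), nor Pfkp, the platelet type (0.13, adjusted p = 0.0988), passed the test. These results depended on the scaling. With the same FPKM total, Hk1 (-0.86, adjusted p = 0.00036), Pfkm (-0.70, adjusted p = 0.000435) and Pfkp (-0.41, adjusted p = 0.00346) were called lower. Hk1 was also called lower under quantile normalization (-0.39, adjusted p = 0.044). After the GC content and length correction, Hk1 had 0.20 (adjusted p = 0.275) and Pfkp was called higher (0.21, adjusted p = 0.0168).

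At the lower end of the pathway, pyruvate kinase Pkm, which is outside the 10 genes, had 220.0, 224 and 223 FPKM in WT and 444, 245 and 416 FPKM in cKO (log2 fold change 0.68, adjusted p = 0.0291). Ldhb, the heart-type lactate dehydrogenase subunit and the more abundant of the pair, rose by 0.57 (adjusted p = 0.0036). Ldha made up 32.0%, 32.5% and 31.6% of the lactate dehydrogenase mRNA in WT and 42.9%, 33.4% and 40.1% in cKO, so its share was above WT in each cKO library, by little in cKO 2. Eno3, beta-enolase, fell by 0.55 (adjusted p = 0.00887), and Pgam2, the muscle mutase, fell by 0.41 (adjusted p = 0.046). Bpgm, which makes 2,3-bisphosphoglycerate, had a log2 fold change of -0.03 (adjusted p = 0.819). Of 19 isoenzyme genes listed, 9 were tested, of which 2 were called higher and 2 lower. The calls of Pkm (0.16 and 0.12) and Ldhb (-0.05 and 0.01) were lost under quantile normalization and with the same FPKM total, and that of Pgam2 (-0.20) under quantile normalization.

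The genes around glycolysis were then counted by whole lists. In all, 37 of their 80 tested genes were called higher and 17 lower, with a median log2 fold change of 0.14. Of all tested genes 35.8% were called higher and 29.8% lower, and each list below is a description beside these shares. Among 8 carriers of glucose and lactate, 5 were tested, 2 were higher and 2 lower. Slc2a1, the main glucose importer GLUT1, had 10.5, 10.5 and 9.23 FPKM in WT and 5.38, 7.45 and 6.93 FPKM in cKO, and fell by 0.56 (adjusted p = 0.00464). The related transporter gene Slc2a8 fell by 0.85 (adjusted p = 0.000471), and Slc2a3, GLUT3, had -0.03 (adjusted p = 0.726). On the lactate side, the monocarboxylate carrier Slc16a1 had 52.9, 52.2 and 50.4 FPKM in WT and 82.0, 78.3 and 86.7 FPKM in cKO and rose by 0.66 (adjusted p = 0.000319). Its chaperone Bsg, basigin, rose by 0.84 (adjusted p = 0.00972). The call of Slc2a1 was lost after the GC content and length correction (-0.32, adjusted p = 0.0538). With the same FPKM total those of Slc16a1 (0.10) and Bsg (0.28) were lost, and Bsg also lost its call under quantile normalization (0.42).

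Of 13 tested genes that control flux, 1 was higher and 6 lower, with a median of -0.24. Pfkfb2, which sets the level of the phosphofructokinase activator fructose 2,6-bisphosphate, fell by 0.62 (adjusted p = 0.0042). Adpgk, an ADP-dependent glucokinase, fell by 0.89 (adjusted p = 0.00159). Myc, an activator of glycolytic genes, had 10.96, 11.45 and 11.80 FPKM in WT and 7.78, 6.70 and 6.87 FPKM in cKO, and fell by 0.62 (adjusted p = 0.000649). Hif1a rose by 0.15 (adjusted p = 0.049), a call that was lost under quantile normalization (0.04) and the GC content and length correction (0.03) and turned with the same FPKM total (-0.40, adjusted p = 0.00572), while its partner Arnt fell by 0.25 (adjusted p = 0.0146). Egln1, the prolyl hydroxylase that marks HIF-1 alpha for destruction, fell by 0.49 (adjusted p = 0.000785), but by 0.06 (adjusted p = 0.49) after the GC content and length correction. Txnip, a brake on glucose uptake and the most abundant gene of this list, had -0.09 (adjusted p = 0.409). It was called lower under quantile normalization (-0.54, adjusted p = 0.00435) and with the same FPKM total (-0.65, adjusted p = 0.00316).

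Among 12 hypoxia targets outside glycolysis, 9 were tested, 1 was higher and 3 were lower, with a median of -0.13. Bnip3l, a mitophagy receptor, rose by 0.36 (adjusted p = 0.0122), a call lost under quantile normalization (0.11), the GC content and length correction (0.13) and the same FPKM total (-0.20). Ddit4, an inhibitor of mTORC1 and the most abundant of the list in WT, had 82.1, 83.1 and 83.2 FPKM in WT and 35.1, 58.1 and 36.6 FPKM in cKO and fell by 0.96 (adjusted p = 0.00276). Vegfa, the angiogenic factor, fell by 0.56 (adjusted p = 0.00388). Among the genes of gluconeogenesis, 2 of 6 were tested, and Pck2, mitochondrial phosphoenolpyruvate carboxykinase, fell by 0.72 (adjusted p = 0.00176), while G6pc3, a glucose-6-phosphatase, had -0.02 (adjusted p = 0.876).

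Because several enzyme genes are HIF-1 and Myc targets, their promoters were searched for ACGTG on either strand, the core letters of a hypoxia response element, in the 250 bases before the RefSeq start (GRCm38.p6). These letters are part of CACGTG, the E-box, so the 2 motifs overlap. All 10 enzymes had a promoter entry, and 4 held a match: Hk2, Aldoa, Pgk1 and Pgam1. Of the 7 enzymes called higher 2 held a match, and of the other 3 also 2. The share was 16.6% among all 32851 promoter entries and 22.6% among entries of tested genes. Of the 4, 3 are shown, from 160 to 61 bases before the start, because all their matches fall in this stretch and they include enzymes that rose and another that did not. Capitals mark ACGTG, or CACGT where it lies on the other strand.
Pgk1 (chrX:106186940-106187039, plus strand): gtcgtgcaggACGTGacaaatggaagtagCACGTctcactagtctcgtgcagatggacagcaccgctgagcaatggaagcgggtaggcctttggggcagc
Aldoa (chr7:126799315-126799414, minus strand): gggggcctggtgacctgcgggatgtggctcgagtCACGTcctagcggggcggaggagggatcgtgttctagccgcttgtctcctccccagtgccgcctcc
Pgam1 (chr19:41911711-41911810, plus strand): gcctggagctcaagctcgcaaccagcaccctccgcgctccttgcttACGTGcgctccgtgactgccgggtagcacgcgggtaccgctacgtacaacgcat
Pgk1 has a match in each orientation, Aldoa and Pgam1 have 1 each. The letters were found in Pgam1, which did not rise, and not in the windows of Tpi1, Gapdh or Ldha, which did. The RefSeq start lay 694 bases from a GENCODE start for Gapdh, 244 for Eno1, 138 for Tpi1, 52 for Pgam1 and 49 for Ldha. The windows of Gapdh, Ldha, Aldoa and Pfkl lay inside the gene spans given above, and that of Tpi1 lay partly inside. Other starts of these enzymes were not searched, so the counts of matches hold for the RefSeq windows only. A match is a description of letters and not a site, and no match says only that the letters are not in this window.

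Downstream of glycolysis, more genes were called higher than lower under median-of-ratios scaling, which did not hold for pyruvate entry with the same FPKM total. Of 12 tested genes of pyruvate entry into mitochondria, 8 were higher and 2 lower, with a median of 0.56. With the same FPKM total 0 were higher and 4 lower, with a median of 0.01, beside 8.74% and 59.9% of all genes. Pdhb, a subunit of pyruvate dehydrogenase, had 94.3, 96.3 and 92.6 FPKM in WT and 140.1, 131.7 and 152.1 FPKM in cKO and rose by 0.57 (adjusted p = 0.000782). The largest rises were in Pdhx, the subunit that binds E3 in that complex (0.65, adjusted p = 0.00064), and Mpc2, a subunit of the mitochondrial pyruvate carrier (0.60, adjusted p = 0.00293). The pyruvate dehydrogenase kinases, which inhibit that complex, went in both directions: Pdk1 fell by 0.41 (adjusted p = 0.0104) and Pdk2 by 0.64 (adjusted p = 0.000703), while X-linked Pdk3 rose by 0.56 (adjusted p = 0.000572). For the citric acid cycle, 12 of 16 tested genes were higher and 0 lower by limma, with 4 not called (0 lower also at an unadjusted p of 0.05) and a median of 0.64, and with the same FPKM total 6 were higher and 4 lower. Fumarase, Fh1, rose by 1.10 (adjusted p = 0.00108), and malate dehydrogenase, Mdh2, the most abundant, by 0.81 (adjusted p = 0.00048).

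The branches from glycolysis behaved likewise in their counts. In the pentose phosphate pathway, which makes NADPH and ribose, 6 of 7 tested genes were higher and 1 was lower, with a median of 0.85. Pgls, the lactonase, had 107, 109 and 105 FPKM in WT and 338, 148 and 266 FPKM in cKO (log2 fold change 1.14, adjusted p = 0.00922), and so had a low cKO 2 value, as the 7 enzymes did. Taldo1, transaldolase, rose by 0.92 (adjusted p = 0.000483), and Rpia, ribose phosphate isomerase, fell by 0.29 (adjusted p = 0.0214). In the serine and glycerol branches, 5 of 7 tested genes were higher and 0 lower by limma (1, Shmt2, at an unadjusted p of 0.05), including Phgdh (0.96, adjusted p = 0.00479), Psat1 (1.14, adjusted p = 0.000355) and Psph (0.58, adjusted p = 0.000964), which together turn 3-phosphoglycerate into serine. Shmt1, which moves a carbon unit from serine to folate, rose by 1.16 (adjusted p = 0.0004). With the same FPKM total, 2 genes of the pentose phosphate list were higher and 1 lower, and 3 of the serine and glycerol list were higher and 2 lower. Over all the pathway lists 11 were then higher and 43 lower, beside 8.74% and 59.9% of all genes.

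**Figure D3:**
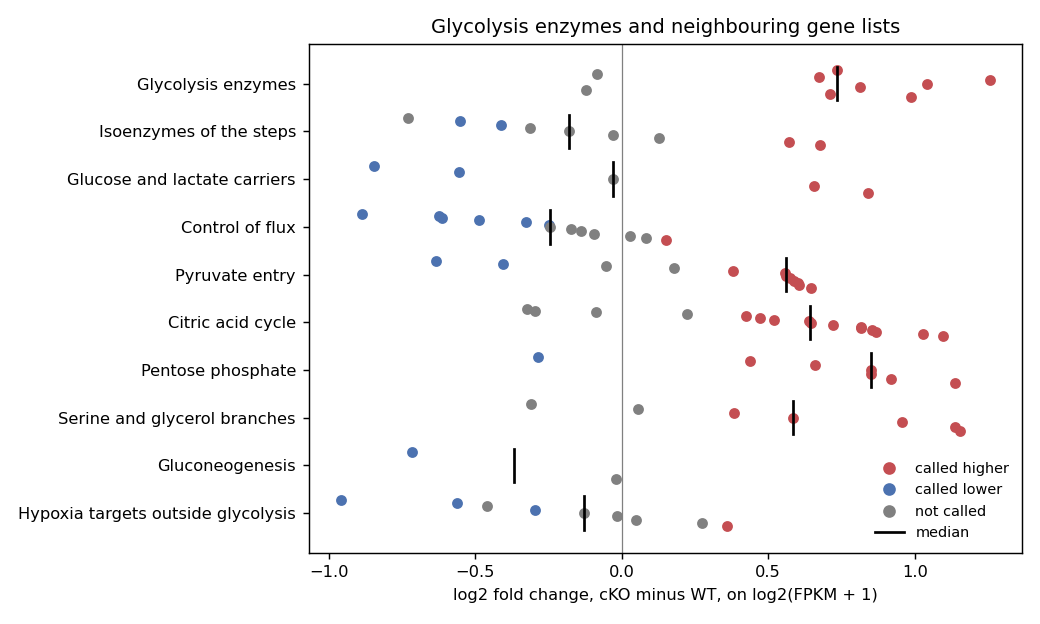
Log2 fold change (cKO minus WT, median-of-ratios scaling) of each tested gene of the glycolysis enzymes and the neighbouring lists, 1 point per gene (red called higher, blue called lower, grey not called), with the median of each list as a black bar. Medians lie above 0.5 for the enzymes, pyruvate entry, citric acid cycle, pentose phosphate and serine lists, and below 0 for the isoenzymes, carriers, control of flux, gluconeogenesis and hypoxia targets.

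As Gapdh was the loading control of the study's RT-PCR, it was set against 12 other genes in common use as RT-PCR references. Of these 12, 7 were themselves called higher in cKO and 1 lower, with a median log2 fold change of 0.42, beside 35.8% and 29.8% of all genes. These counts depended on the scaling: 3 were higher and 3 lower under quantile normalization (median -0.01), and 4 and 5 with the same FPKM total (median -0.13). Under median-of-ratios scaling, only Polr2a (-1.16) and Rplp0 (1.11) changed by more than Gapdh did. Hprt, an X-linked purine salvage gene, rose by 0.98 (adjusted p = 0.000314), and Ppia, cyclophilin A and the most abundant of the 12, rose by 0.96 (adjusted p = 0.00152), the latter with 0.00 (adjusted p = 0.994) under quantile normalization. Actb, beta-actin, had 1483, 1482 and 1472 FPKM in WT and 1312, 1663 and 1164 FPKM in cKO (log2 fold change -0.12, adjusted p = 0.518, but -0.93, adjusted p = 0.0101, under quantile normalization). Ywhaz (0.13, adjusted p = 0.311), Gusb (-0.02, adjusted p = 0.876) and Tfrc (-0.24, adjusted p = 0.359) did not pass the test either. The ratio of Gapdh to Actb was 0.393, 0.395 and 0.391 in WT and 1.15, 0.52 and 1.13 in cKO.

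All 3 cKO ratios were above all 3 WT ratios for 7 of the 12 references, and the groups overlapped for the other 5: Hprt, Ppia, Tbp, Rpl13a and Rplp0. For none of the 12 were all cKO ratios below WT. Rplp0, a ribosomal protein gene, followed Gapdh most closely, with ratios of 0.402, 0.401 and 0.403 in WT and 0.405, 0.385 and 0.361 in cKO.

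**Figure D4:**
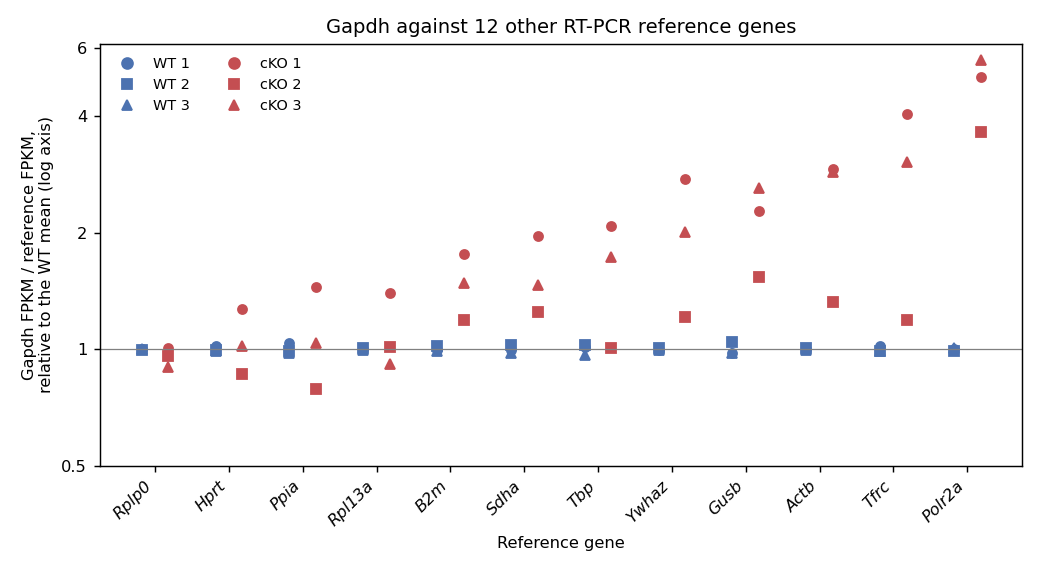
Ratio of Gapdh FPKM to the FPKM of 12 reference genes in each library, divided by the mean ratio in WT, on a log axis (blue WT, red cKO; circle, square and triangle are replicates 1, 2 and 3). Red points lie above all blue points for 7 references, and the mean cKO ratio ranges from 0.955-fold (Rplp0) to 4.75-fold (Polr2a) that of WT.

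Dividing every gene by Gapdh in its library shows what this reference does to a comparison of these libraries. The median log2 fold change of all genes became -0.86, and 0.833% of genes were called higher and 73.8% lower. Of the other 8 tested enzymes, 0 were called higher by limma, also at an unadjusted p of 0.05, and Pfkl (-1.04, adjusted p = 0.000802) and Pgam1 (-1.13, adjusted p = 0.00142) were called lower. The remaining ones had values of 0.23 for Tpi1, -0.05 for Ldha, -0.22 for Pgk1, -0.30 for Gpi1, -0.33 for Eno1 and -0.36 for Aldoa. Among genes whose RT-PCR the study ran, Cdk1, the mitotic kinase, went from 1.11 (adjusted p = 8.56e-05) to 0.09 (adjusted p = 0.728), Rpl26, a ribosomal protein gene, went from 1.72 (adjusted p = 0.000566) to 0.70 (adjusted p = 0.0279) and so was still called higher, and Fyn, a Src family kinase, went from -1.03 to -2.03. The calls of Cdca3 (0.05, adjusted p = 0.843), Atp5h (0.32, adjusted p = 0.0946) and Ndufs5 (0.59, adjusted p = 0.128) were lost as that of Cdk1 was. Plcg1, Ccr7, Junb, Ptk2b and Bag6 were called lower before and after the division, as Fyn was. These are FPKM values divided by Gapdh FPKM, not RT-PCR values. What the study's RT-PCR found for these genes is not restated here and cannot be read from them. Whether Gapdh would move in the same way in RT-PCR was not tested here.

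Gapdh has many near-copies, so its value is less certain than that of the other enzymes. At 90% identity or more over at least 50% of the coding sequence, 164 other annotated genes matched Gapdh, 156 of them pseudogenes, compared with 11 for Ldha, 6 each for Aldoa and Eno1, 3 for Pgam1, 2 for Pgk1, 1 each for Gpi1 and Tpi1, and 0 for Hk2 and Pfkl. How reads that fit several copies were shared out was not given in the sources used here. Gm12070, a processed pseudogene of Gapdh, had 22.1, 20.3 and 20.1 FPKM in WT and 56.8, 28.7 and 45.5 FPKM in cKO, 3.32% to 3.8% of Gapdh in each of the 6 libraries. Eno1b, a near-copy of Eno1, had 8.60, 9.03 and 8.94 FPKM in WT and 7.92, 2.74 and 5.26 FPKM in cKO (-0.73, adjusted p = 0.0552).

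The pair of Gapdh primers used for RT-PCR is shown because the same question applies to that assay. Both are given 5′ to 3′, as listed by the study, with their position in mm10.
Forward (chr6:125163274-125163293, sense): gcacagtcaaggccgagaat
Reverse (chr6:125163143-125163162, antisense): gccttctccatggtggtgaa
Both lie in the coding part of exon 3 of the main Gapdh transcript and frame a product of 151 bases with no intron inside it. The exact forward site occurred in 107 annotated genes and the reverse site in 149. Both occurred in 72 genes, that is Gapdh and 71 others, of which 69 are annotated as pseudogenes.

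Markers of other cells were counted beside these results, and beside the 35.8% of all tested genes called higher and 29.8% called lower. Of 9 DP thymocyte markers, all tested, 6 were higher and 1 lower, with Cd4 at 486 to 487 FPKM in WT and 566 to 723 in cKO, and Cd8a at 680.3 to 688 in WT and 1003 to 1163 in cKO. Cd8b1, the most abundant (0.84, adjusted p = 0.00364), and Dntt, the terminal transferase of antigen receptor joining (0.91, adjusted p = 0.00199), rose most. These counts too depended on the scaling, with 1 marker higher and 4 lower under quantile normalization, where Cd4 had -0.26 (adjusted p = 0.0344), and 2 higher and 3 lower with the same FPKM total. All 10 genes of cycling cells were higher, with a median log2 fold change of 1.09, Ccnb1, a mitotic cyclin (1.32, adjusted p = 8.13e-05), and Mcm5, a replication helicase subunit (1.28, adjusted p = 0.000893), rising most and Pcna (1.13, adjusted p = 0.000175) being the most abundant. Of these 10, 9 were called higher with the same FPKM total and all 10 under quantile normalization. cKO 2 was the lowest cKO library for 8 of the 10, at 63.2% (Mcm5) to 106% (Cdk1) of the mean of cKO 1 and cKO 3, so Mcm5 was within the range of the enzymes and the others were above it. Of 5 markers of mature single-positive cells, 4 were lower and 1 was higher, with Ccr7 at 15.1 to 16.2 FPKM in WT and 1.16 to 2.50 in cKO and S1pr1, the receptor for thymus exit, at 4.11 to 4.79 in WT and 0.133 to 0.203 in cKO.

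Of the erythroid markers, Hbb-b1, beta-globin, had 1.29, 1.66 and 2.00 FPKM in WT and 15.1, 8.86 and 15.7 FPKM in cKO, and Hba-a1 had 0.416 to 1.00 in WT and 3.27 to 10.4 in cKO, lowest in cKO 2 as for the enzymes. The B cell genes Cd79a and Ms4a1 were low, at most 0.746 FPKM (Cd79a) in any library, while Cd79b had 21.5 to 23.0 in WT and 25.6 to 38.3 in cKO. Among 5 myeloid markers 4 were tested and 0 called by limma, also at an unadjusted p of 0.05, and the highest value was 3.59 FPKM (Cd68). The thymic epithelial genes Krt5 and Foxn1 were listed at 0 throughout, and Epcam had 1.88 to 3.71 FPKM (-0.34, adjusted p = 0.0964). What part cycling cells, mature cells or globin-bearing cells had in the values of the enzymes was not tested.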

How the data were processed

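RNA from DP thymocytes was sequenced in 3 WT and 3 cKO libraries, grouped by their titles. As the study's methods say, poly(A) RNA was prepared with a directional kit, sequenced in pairs on an Illumina NovaSeq, trimmed and mapped to mm10 with TopHat, and the authors estimated FPKM with Cufflinks. Tool versions, the annotation and the strand setting were not given in the sources used here. The deposited FPKM values were used as they are. The authors' own differential test, DESeq2, needs counts, which were not used here. From the FPKM values, median-of-ratios size factors (1.00 to 1.01) were computed, and log2(FPKM + 1) of the 10326 genes with at least 1 FPKM in at least 3 libraries was tested with limma 3.58.1 (R 4.3.3, lmFit, eBayes with trend), two-sided, with Benjamini-Hochberg adjustment at 0.05. A fold change on this scale understates the change of low genes. Depth was estimated from the steps between low FPKM values of 2611 single-transcript genes with an assumed fragment length of 200 bases. It is an estimate, and estimated fragments cover counting error only.

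Symbols were matched to GENCODE M21 on mm10 (22148 of 23183, a further 649 through RefSeq synonyms, Nsrp1 from its older symbol Ccdc55). Copies were found with blastn 2.17.0, and promoters were taken from RefSeq. The model was tested first on simulated data in which WT and cKO had the same spread. That test therefore does not cover the unequal spread of these libraries. The enzymes and gene lists were chosen with earlier results of these data known. The genes named are the 10 enzymes, Nsrp1, the detected isoenzymes, the most abundant and the most changed called genes of each list, and the 5 closest profiles. Other genes named from the lists (Slc2a3, Myc, Arnt, Egln1, Pdk3, Psph, Actb, Ywhaz, Gusb, Tfrc, Cd4, Cd8a, Shmt2, Cdk1, Rpl26, Fyn and the other RT-PCR targets, the sex-linked genes and the markers near 0) were chosen after their values were seen. Alternatives were quantile normalization, scaling to the same FPKM total or to Gapdh, a pseudocount of 0.1, no filter, no trend, array weights that give each genotype its own spread, a replicate block, a correction for GC content and length, WT counted as 1 sample, and leaving out each library. A few genes of the lists are counted there but not reported here by name, and the comparison of Gapdh with reference genes leaves them out.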

Additional observations from a re-analysis of the deposited data

How the results depend on the processing

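Of the 9 tested enzymes, 7 were called higher and 0 lower by limma. The count higher was 3 under quantile normalization, 4 with the same FPKM total, 0 after division by Gapdh and 0 with WT counted as 1 sample, and the count lower was 1, 2 and 2 under the first 3 of these and 1 after correction for GC content and length. Over all genes, 3693 were higher and 3073 lower, and these counts became 903 and 6182 with the same FPKM total, 86 and 7623 after division by Gapdh, and 739 and 902 with WT counted as 1 sample. The 37 higher and 17 lower genes of the pathway lists became 11 and 43, 0 and 51, and 10 and 2 under the same 3 settings. Directions reversed after division by Gapdh for Gpi1 (-0.30), Aldoa (-0.36), Pgk1 (-0.22), Eno1 (-0.33) and Ldha (-0.051), and for Pfkl with the GC content and length correction (0.42) and without cKO replicate 2 (0.097, where leaving out 1 library gave -0.265 to 0.097). Of the other comparisons of 1 enzyme under 1 alternative, 103 kept direction and call, 27 lost the call and 6 gained it. Leaving out 1 library gave 5 to 7 enzymes higher and 0 lower, 3073 to 4113 and 2504 to 3554 of all genes, 32 to 41 and 13 to 24 of the pathway lists, and a fold of the share held by the enzymes of 1.17 to 1.43, where the full set gave 1.3.

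Libraries with the same replicate number did not deviate together (correlations of -0.022, 0.038 and 0.031). With the replicate block, 7 enzymes were called higher, and 3513 and 2954 of all genes were higher and lower.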
